A study of Mus musculus with 6 samples.

Results

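Cells of adult mouse hind limb muscle that carried a Pax7 lineage label were set against the unlabelled cells of the same mouse line, over all 4939 genes that the authors kept in their table of counts per 1000000 reads (CPM). The comparison holds 2 of the 6 libraries of the series, 1 of labelled cells (Pax7pos) and 1 of unlabelled cells (Pax7neg). Both came from adult C57BL/6 mice of genotype Pax7-CreERT2/+;R26-tdTO+, in which the Pax7 gene drives a Cre recombinase that works only after tamoxifen, and Cre switches on the red protein tdTomato for good. The other 4 libraries are labelled (Tw2pos, n = 2) and unlabelled (Tw2neg, n = 2) cells of the Tw2-CreERT2/+;R26-tdTO+ line on the same background, in which Twist2 drives the Cre. All groups had 3 tamoxifen treatments, given on alternate days, with muscle taken 10 days later, and total RNA of freshly sorted cells was sequenced. The label therefore marks cells by what they expressed when tamoxifen was given, and their descendants. The labels do not say whether a library holds 1 animal or several. They describe the sorting of labelled cells only, and which libraries are unlabelled fractions comes from the sample titles.

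Pax7 encodes a paired-box transcription factor that in adult muscle marks satellite cells, the stem cells that lie between the fibre and its basal lamina. Satellite cells rest outside the cell cycle until injury, then express the myogenic factor Myod1, divide, and fuse into fibres or return to rest. Notch receptors, M-cadherin (Cdh15), the laminin receptor integrin alpha 7 (Itga7) and fibroblast growth factor receptors are among the molecules by which they sense their niche. The rest of the mononuclear cells of muscle are fibro-adipogenic progenitors, which make much of the matrix, endothelial cells, pericytes, tendon cells, Schwann cells and leukocytes. These cells would all fall into the unlabelled fraction of a Pax7 line.

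The Pax7pos library held 6016469 reads in the table and Pax7neg held 7565797, which are 62.8% and 60.8% of the library sizes that the authors scaled by. The upper limit that a count of 0 allows, 3 reads, comes to 0.313 CPM in Pax7pos and 0.241 CPM in Pax7neg. Levels are given in CPM, and a difference is log2 of (CPM Pax7pos + 10) over (CPM Pax7neg + 10), which understates the change of genes at low level. A gene is called higher or lower in Pax7pos where that difference reaches 2, a 4-fold change on this scale. With 1 library a group the difference has no replicate check, so no test was made, and the intervals given here cover counting error only. The table was itself selected: every gene in it reached 10 CPM in at least 3 libraries and differed 2-fold or more from Tw2neg in at least 1 of the other groups. A gene found at such levels in Pax7pos alone could not enter it, and Myf5, Myog, Calcr and Ckm have no line. For 1853 genes the Pax7pos value supplied the only 2-fold difference, while 1964 genes met the rule by the Twist2 libraries alone.

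Of the 4939 genes, 189 (3.83%) were higher in Pax7pos and 719 (14.6%) were lower. Counts of called genes in the lists below are to be read beside these shares. The median difference over all genes was −0.43, and in Pax7pos 1526 genes lay under 10 CPM against 303 in Pax7neg. Over the 2156 genes whose mean level reached 50 CPM the median was 0.51, with 173 genes higher and 383 lower. The split between higher and lower depends on the scaling: 20.8% of the called genes were higher on the deposited CPM, 43.7% with TMM factors (415 higher, 534 lower), 46.9% with median-of-ratios factors (452 and 511) and 34.7% after quantile normalization (260 and 490). These scalings moved the median of all genes up by 0.36, 0.42 and 0.59. The 15 largest differences in each direction, taken from genes whose mean level reached 50 CPM, stayed past the size in all of the settings in which they had a value. Among the genes that the Twist2 libraries alone had chosen, 52 of 1964 (2.65%) were higher and 363 (18.5%) were lower.

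**Figure D1:**
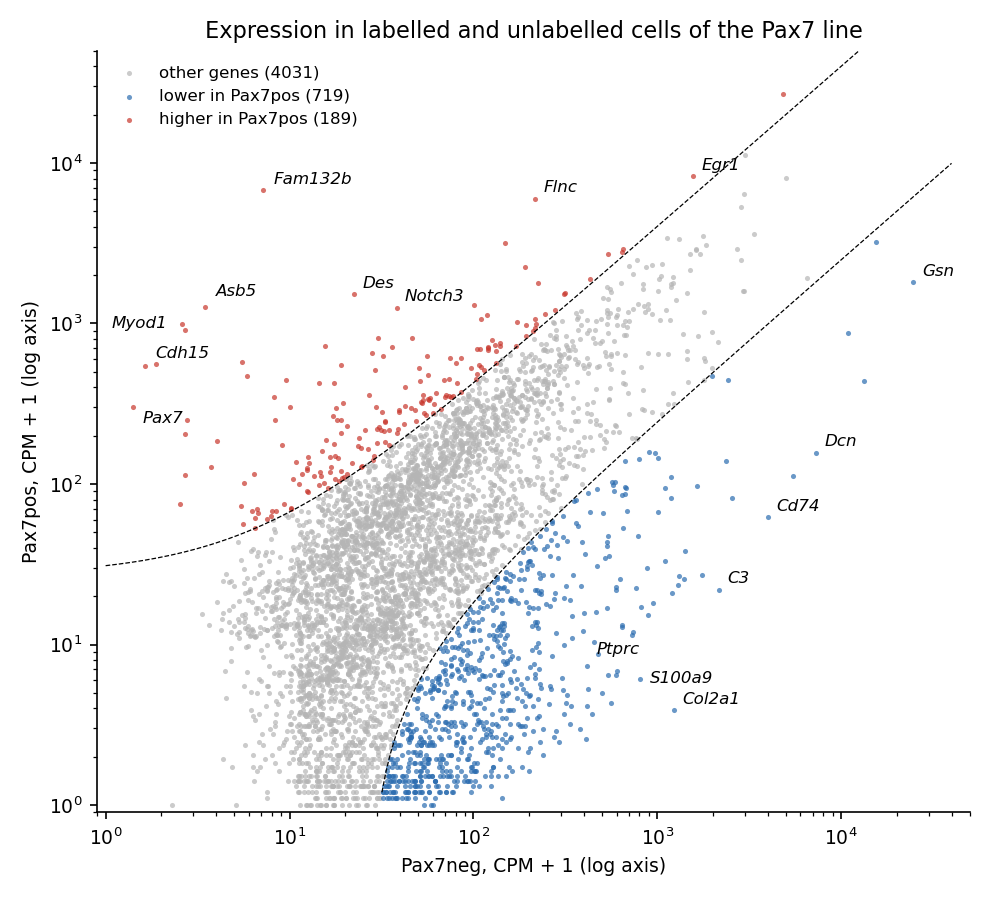
CPM of each of the 4939 genes in Pax7neg (x axis) and Pax7pos (y axis), both on a log axis after adding 1 CPM, with 1 point per gene and dashed lines at the 4-fold size of CPM + 10. The 189 genes higher (red) and the 719 genes lower (blue) in Pax7pos are coloured, and Fam132b stands farthest above the diagonal.

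The replicate pairs of the Twist2 line gave the only measure of how far libraries of 1 group differ. Over the same 4939 genes, the 2 Tw2neg libraries differed by a size of 2 in 2 genes (0.0405%), the largest being Ccl22 at 2.04. The Tw2pos pair had 0 such genes, with Cyp2f2 the largest at 1.66. Between Pax7pos and Pax7neg 908 genes (18.4%) passed that size. At a size of 1 the Tw2neg pair differed in 315 genes (6.38%), the Tw2pos pair in 15 (0.304%) and the Pax7 libraries in 2536 (51.3%), of which 905 were higher (18.3% of all genes) and 1631 lower (33.0%). At a size of 3 the Pax7 libraries differed in 316 genes (6.40%), 48 higher (0.972%) and 268 lower (5.43%), and both replicate pairs in 0. Differences of 2 were therefore rare in both replicate pairs, while those of 1 were rare in the Tw2pos pair and less so in the Tw2neg pair. The unlabelled cells of the 2 lines differed by a size of 2 in 16 genes, when Pax7neg was set against the authors' mean of Tw2neg.

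**Figure D2:**
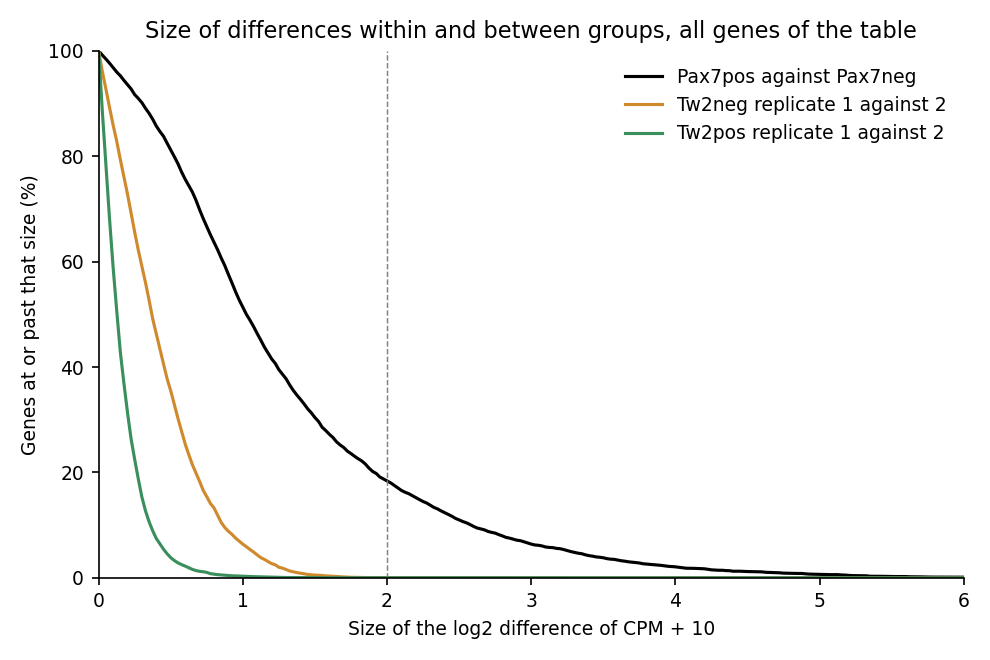
Share of the 4939 genes (y axis, percent) whose log2 difference of CPM + 10 between 2 libraries reaches the size on the x axis, for the Pax7 libraries and for the replicate pairs of the Twist2 line, with a dashed line at a size of 2. At a size of 2 the Pax7 libraries are at 18.4% and the Tw2neg pair at 0.0405%.

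The gene that carries the Cre followed the label. Pax7 (chromosome 4, 139737059 to 139833530, minus strand, GRCm38) was at 303 CPM (2899 reads) in the labelled cells against 0.402 CPM (5 reads) in the unlabelled ones. That is a difference of 4.91 and a ratio of 754 (95% interval 323 to 2323). In the Tw2neg libraries, which keep whatever satellite cells that line leaves unlabelled, Pax7 was at 45.7 and 14.8 CPM. Sorting on the Pax7 label thus left less Pax7 RNA in the unlabelled fraction than the Twist2 line's unlabelled fraction held. Twist1, a relative of the gene that labels the other line, went the opposite way, at 1.57 CPM (15 reads) against 30.7 CPM, a ratio of 19.6 in favour of Pax7neg; its difference of −1.81 stays inside the size because of the added 10 CPM.

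Of the 31 listed satellite cell markers 23 had a line, 18 of them higher in Pax7pos and 1 lower, with a median of 3.27 against −0.43 for all genes. The defining markers Pax7 and Cdh15 both lie on the side of the label, while Myf5, the remaining defining marker, has no line. Cdh15, the cadherin that holds satellite cells to the fibre, was at 540 CPM against 0.643 CPM (8 reads), a ratio of 839 (426 to 1945). Asb5, a member of the ankyrin-repeat SOCS-box family, was at 1274 CPM against 2.49 CPM, a difference of 6.68. Fgfr4, a fibroblast growth factor receptor of the muscle lineage, was at 557 CPM against 0.884 CPM (11 reads), a difference of 5.70. These 3 genes had between 8 and 31 reads in the unlabelled library and 5165 to 12193 in the labelled one.

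Surface and signalling markers of satellite cells were higher by smaller margins. Vcam1, an adhesion molecule used to sort these cells, was at 696 CPM against 103 CPM (2.64). Cd82, a tetraspanin also used for sorting, was at 1132 CPM against 118 CPM (3.15). Met, the receptor for hepatocyte growth factor, was at 144 CPM against 17.4 CPM (2.49). Sdc4, a heparan sulphate proteoglycan, was at 1884 CPM against 429 CPM (2.11), so the unlabelled cells held a good deal of it too. Megf10, a scavenger-type receptor that acts in satellite cell division, was at 300 CPM against 9.08 CPM (4.02). Tnfrsf19, a receptor of the tumour necrosis factor family, was at 55.3 CPM against 4.58 CPM (2.16). The 5 measured markers that were not higher included 2 below 0. Cxcr4, a chemokine receptor shared with leukocytes, was at 196 CPM against 248 CPM (−0.32), with values of 0.20 under TMM and 0.28 under median-of-ratios scaling. Cd34, a marker that fibro-adipogenic progenitors and endothelial cells share, was the lower member, at 95.5 CPM against 668 CPM (−2.68). Chodl, Spry1 and Dlk1 stayed inside the size at differences of 1.84, 1.80 and 1.70.

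Myod1, the basic helix-loop-helix factor that commits cells to muscle, had one of the largest differences of the table. It lies on chromosome 7 (46376474 to 46379092, plus strand) and was at 993 CPM (9510 reads) in Pax7pos against 1.61 CPM (20 reads) in Pax7neg, a difference of 6.43 and a ratio of 618 (400 to 1013). The Twist2 line had 31.9 and 36.2 CPM in Tw2neg and 8.75 and 19.8 CPM in Tw2pos. Msc, which encodes musculin, a repressor of the same protein family, was at 471 CPM against 4.90 CPM (5.01). Of the 14 measured myogenic regulators out of 31 listed, 3 were higher, Myod1 and Msc among them, 2 were lower and the median was 0.02. The lower pair are Mef2c (14.6 CPM against 142 CPM, −2.63) and Meox2 (1.98 CPM against 42.4 CPM, −2.13), factors that endothelium and other cells express as well. Eya4, Six2 and Six5 stood at 1.51, 0.43 and 0.14, and Eya2, Dach1, Prdm1 and Meox1 between −1.76 and −0.95. The list therefore split by gene and did not move as a block.

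The largest difference of the whole table was that of Fam132b, whose present symbol is Erfe (chromosome 1, 91366305 to 91374217, plus strand). It encodes erythroferrone, a secreted C1q/TNF-related protein known from red blood cell precursors, where it acts on iron supply, and from muscle, where it was named myonectin. Pax7pos held 6752 CPM (64635 reads) and Pax7neg 6.19 CPM (77 reads), a difference of 8.71 and a ratio of 1091 (873 to 1383). The Tw2neg libraries held 467 and 299 CPM and the Tw2pos libraries 97.6 and 140 CPM, so each Twist2 library lay between the Pax7 libraries. Per kilobase of exon it reached 2399 CPM in Pax7pos, against 51.7 CPM per kilobase for Pax7, 534 for Myod1 and 404 for Des. The red blood cell list stayed inside the size in all 4 measured genes, with Alas2, the haem synthesis enzyme of red cells, at 4.91 CPM against 18.9 CPM. Gal, which encodes the neuropeptide galanin, followed at 916 CPM against 1.69 CPM (6.31), or 1162 CPM per kilobase in Pax7pos. Only these 2 of the 11 measured hormone and neuropeptide genes were higher. Among the 4 lower ones are C1qtnf1, a relative of Fam132b (5.75 CPM against 100 CPM, −2.80), and Metrnl (12.3 CPM against 126 CPM, −2.61). A further relative, C1qtnf3, was at 112 CPM against 33.1 CPM, inside the size.

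**Figure D3:**
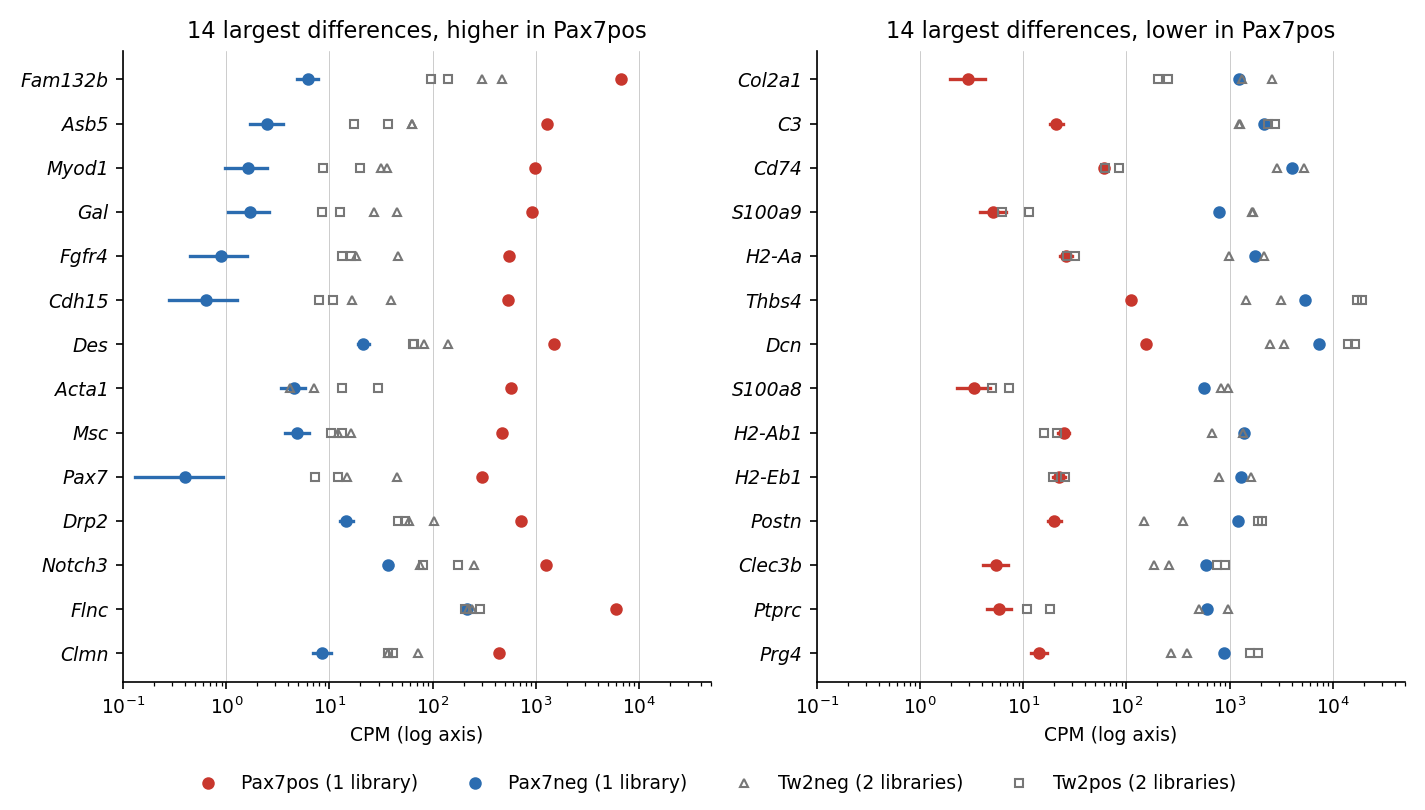
CPM in Pax7pos (red) and Pax7neg (blue), with bars for the 95% Poisson interval of the reads, and in the 4 Twist2 libraries (open grey symbols), on a log axis, for the 14 genes with the largest difference in each direction, out of those whose mean level reached 50 CPM. Fam132b spans 6.19 to 6752 CPM and Col2a1 spans 2.92 to 1238 CPM.

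Structural genes of muscle were among the largest differences although most of the fibre's contractile genes have no line. Des, the intermediate filament desmin, was at 1516 CPM against 21.4 CPM (5.60). Acta1, the skeletal muscle actin of fibres, was at 576 CPM (5511 reads) against 4.50 CPM (56 reads), a difference of 5.34. Tnnt3, the fast fibre troponin T, was at 67.2 CPM against 7.39 CPM (2.15). Those are the 3 measured genes of 30 listed, and all 3 were higher. However, 0 of the 3 met the authors' rule by the Twist2 libraries alone. Acta1 reached 10 CPM only in Pax7pos and the Tw2pos libraries, so its Pax7pos level let it enter the table. Acta1 had 4.16 to 29.6 CPM in the 4 Twist2 libraries, far from its level in Pax7pos. Flnc, a muscle filamin, was at 5991 CPM against 215 CPM (4.74), and its 4 Twist2 values ran from 204 to 286 CPM. Whether fibre RNA or satellite cells carried Acta1 and Tnnt3 was not tested.

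The promoters of 3 of these genes are given as the 250 bases before the RefSeq gene start (GRCm38.p6), 5′ to 3′ on the strand of the gene. The letters searched were CAGCTG, the E-box form that Myod1 and its relatives bind, which reads the same on both strands and is set in capitals where present. Cdh15 spans chr8:122848124-122848373 (plus strand), Des chr1:75360042-75360291 (plus strand) and Acta1 chr8:123894776-123895025 (minus strand).
Cdh15: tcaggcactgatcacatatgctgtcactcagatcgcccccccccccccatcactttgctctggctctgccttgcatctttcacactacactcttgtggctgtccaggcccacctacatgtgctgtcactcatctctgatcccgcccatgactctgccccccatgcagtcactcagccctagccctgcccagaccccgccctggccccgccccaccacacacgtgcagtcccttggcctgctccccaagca
Des: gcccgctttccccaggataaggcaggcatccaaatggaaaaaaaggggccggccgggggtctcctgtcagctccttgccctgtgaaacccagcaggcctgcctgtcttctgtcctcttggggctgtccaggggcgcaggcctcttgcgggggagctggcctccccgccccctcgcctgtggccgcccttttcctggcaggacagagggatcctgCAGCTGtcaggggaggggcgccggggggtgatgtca
Acta1: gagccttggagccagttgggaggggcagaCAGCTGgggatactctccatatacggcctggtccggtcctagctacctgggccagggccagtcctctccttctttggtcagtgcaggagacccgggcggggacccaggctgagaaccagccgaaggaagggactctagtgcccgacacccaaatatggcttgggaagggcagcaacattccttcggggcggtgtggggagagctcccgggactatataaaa
The Des window holds the letters 36 bases and the Acta1 window 221 bases before the gene start, and the Cdh15 window does not hold them. Of the 134 genes higher in Pax7pos that the promoter table lists, 34 (25.4%) have CAGCTG in this window. The share was 18.2% (94 of 516) in the genes lower in Pax7pos, 14.9% (468 of 3145) in the remaining genes of the CPM table and 14.7% (3979 of 27025) in all RefSeq promoters of this length. A match of letters is a description and not a binding site.

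Genes of the neuromuscular synapse and of the link between membrane and cytoskeleton were higher where measured. Chrnb1, the beta subunit of the muscle acetylcholine receptor, was at 426 CPM against 13.5 CPM (4.22). Musk, the receptor kinase that gathers those receptors, was at 184 CPM against 3.05 CPM (3.89). Ncam1, an adhesion molecule of satellite cells, nerve and Schwann cells, was at 251 CPM against 17.0 CPM (3.27). Those make up the 3 higher genes among 5 measured, and Etv5, a factor expressed at the synapse, stood at 1.65. In the dystrophin complex 3 of 11 measured genes were higher, with a median of 0.92. Itga7 was at 809 CPM against 29.2 CPM (4.39). Dag1, the matrix receptor dystroglycan, was at 1060 CPM against 109 CPM (3.16). Dmd, dystrophin itself, was at 112 CPM against 13.8 CPM (2.35). Utrn, the relative of dystrophin, was at 256 CPM against 131 CPM (0.92), and Lama2, the laminin chain of the muscle basal lamina, at 797 CPM against 377 CPM (1.06). Drp2, a dystrophin-related protein known from Schwann cells, was at 719 CPM against 14.6 CPM (4.89), while the Schwann cell gene Mbp was at 15.4 CPM against 63.4 CPM. Clmn, which encodes calmin, was at 441 CPM against 8.52 CPM (4.61).

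Genes of myoblast fusion and differentiation were mixed, with 3 of 9 measured genes higher, 1 lower and a median of 0.27. Cdon, a cell surface co-receptor in myogenesis, was at 352 CPM against 76.3 CPM (2.07), while its partner Boc was at 165 CPM against 131 CPM (0.31). Kirrel was at 372 CPM against 85.1 CPM (2.01). Cdkn1c, an inhibitor of cyclin-dependent kinases that is imprinted, was at 478 CPM against 55.7 CPM (2.89). Jam2, an adhesion molecule that endothelium also carries, was lower, at 7.83 CPM against 94.3 CPM (−2.55).

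Among the Notch genes the receptor Notch3 was at 1253 CPM against 37.2 CPM (4.74), the target Heyl at 428 CPM against 16.6 CPM (4.04) and Notch1 at 343 CPM against 166 CPM (1.01). Notch3 is also on the pericyte list, where it and Des were the 2 higher of 11 measured genes and 3 were lower, Pdgfrb (18.5 CPM against 159 CPM, −2.56), Anpep (5.33 CPM against 112 CPM, −2.99) and Myh11 (15.9 CPM against 111 CPM, −2.23). The part of pericytes in the Notch3 value was not tested. Dtx4, a ubiquitin ligase of the pathway, was the remaining higher gene at 317 CPM against 18.6 CPM (3.52). Rbpj, the DNA-binding effector of the pathway, was at 218 CPM against 120 CPM (0.81). The 16 measured Notch genes had 3 higher, 4 lower and a median of 0.28. The lower ones include Dll4, the ligand of endothelial tip cells (2.19 CPM against 40.7 CPM, −2.06), and Lfng (1.67 CPM against 50.1 CPM, −2.36). Other receptors and targets of the list stayed inside the size, with Hey1 at 1.72, Hes1 at 0.23, Nrarp at −1.14 and Notch4 at −1.18.

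Of 5 measured receptors for fibroblast growth factors 2 were higher, Fgfr4 and Fgfr1, the latter at 1533 CPM against 310 CPM (2.27). Fgfr2 was at 2.09 CPM against 10.6 CPM (−0.77), and Fgfr3 and Fgfrl1 stood at 0.05 and 0.18. Spry2 and Spred1, inhibitors that this signal induces, were at 361 CPM against 92.4 CPM (1.86) and 506 CPM against 141 CPM (1.77). The 14 measured genes of the pathway had 2 higher, 0 lower and a median of 1.16. In the Wnt list 0 of 23 measured genes were higher and 7 were lower, with a median of −0.85 that becomes 0.07 after quantile normalization. Sfrp4, a secreted Wnt inhibitor, was at 4.81 CPM against 159 CPM (−3.51), and Tcf7, a Wnt effector also found in T cells, at 10.2 CPM against 131 CPM (−2.80). Lgr4, a receptor for R-spondins, stood at 1.34. In the TGF-beta and BMP list 0 of 30 were higher and 5 lower, with a median of 0.38. Those counts lie near the shares over all genes, 3.83% higher and 14.6% lower. Gdf10, a ligand of that family, was at 0.940 CPM (9 reads) against 91.2 CPM (−3.21), while Id3, a target of BMP signals, was at 798 CPM against 281 CPM (1.47). Fstl1, a secreted glycoprotein, stood at −1.85. Vegfa, the main growth factor of vessels, was at 558 CPM against 138 CPM (1.94), just inside the size.

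In the list of insulin-like growth factor and imprinted genes 6 of 25 measured genes were higher and 3 lower, with a median of 1.06. Peg3, a paternally expressed zinc finger gene, was at 654 CPM against 27.2 CPM (4.16). Meg3, a maternally expressed long noncoding RNA, was at 1787 CPM against 224 CPM (2.94). Igf2r, the receptor that clears Igf2, was at 676 CPM against 131 CPM (2.28). Zdbf2 and Zim1 were at 101 CPM against 4.66 CPM (2.92) and at 73.9 CPM against 1.53 CPM (2.86). Gnas was at 3417 CPM against 1134 CPM (1.58). Among binding proteins of the growth factors, Igfbp6 was at 29.1 CPM against 882 CPM (−4.51) and Igfbp5 at 545 CPM against 478 CPM (0.18). The 6 higher genes, which include Cdkn1c, are imprinted in mouse, and the 3 lower ones are the binding proteins Igfbp3, Igfbp6 and Igfbp7. Other imprinted genes of the list stayed inside the size, among them Ndn at 7.10 CPM against 51.1 CPM (−1.84), Impact at −1.47, Sgce at −0.46 and Peg10 at 67.2 CPM in both libraries.

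Many mesenchymal and matrix genes lay on the unlabelled side, 36 different genes of the following pair of lists. Of 27 measured markers of fibro-adipogenic progenitors 0 were higher and 21 lower, with a median of −3.62, and of 43 matrix genes 0 were higher and 20 lower, with a median of −1.94. Pdgfra, the receptor that defines these progenitors, was at 4.28 CPM (41 reads) against 264 CPM (−4.26). Ly6a, their other defining marker, was at 12.2 CPM against 645 CPM (−4.88). Dcn, the small proteoglycan decorin, was at 156 CPM against 7294 CPM (−5.46). Gsn, the actin-severing protein gelsolin and the most abundant gene of Pax7neg, was at 1817 CPM against 24699 CPM (−3.76). The fibrillar collagens Col1a2 and Col1a1 were at 436 CPM against 13305 CPM (−4.90) and at 875 CPM against 10914 CPM (−3.62). Col3a1 kept 3225 CPM against 15541 CPM (−2.27), and Sparc, a matrix-binding protein that muscle cells also make, 1910 CPM against 6532 CPM (−1.77). Clec3b and Apod were at 5.43 CPM against 595 CPM (−5.29) and at 25.9 CPM against 1313 CPM (−5.20). In this list 2 genes lay above 0, among them the plasma glutathione peroxidase Gpx3 at 1596 CPM against 1010 CPM (0.66). In bulk RNA fewer cells of a type and less RNA per cell cannot be told apart.

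Most genes of the tendon list lay on the unlabelled side, as did Col2a1 of cartilage, but not the cartilage factor Sox9, at 360 CPM against 26.0 CPM (3.36). Col2a1, the collagen of cartilage, had the most negative difference of the table at 2.92 CPM (28 reads) against 1238 CPM (−6.59), a ratio of 423 (293 to 637). Thbs4, a thrombospondin of tendon, was at 111 CPM against 5444 CPM (−5.50), and Prg4, the lubricant of joint surfaces, at 14.3 CPM against 890 CPM (−5.21). Fmod and Cilp, matrix proteins of tendon and cartilage, were at 80.7 CPM against 2537 CPM (−4.81) and at 17.0 CPM against 949 CPM (−5.15). Postn, the matrix protein periostin, was at 20.1 CPM against 1195 CPM (−5.33). Of 19 tendon genes 12 were lower and 2 higher, with a median of −3.32. The higher pair are Egr1 (8267 CPM against 1561 CPM, 2.40) and Egr2 (367 CPM against 61.5 CPM, 2.40), transcription factors that are also immediate-early genes of many cell types. In mesenchymal transcription factors 2 of 21 were higher and 3 lower, with a median of −0.82, beside 3.83% and 14.6% of all genes. The lower ones include Ebf1, shared with B cells (3.66 CPM against 121 CPM, −3.26). Heyl and Snai2 (68.6 CPM against 9.24 CPM, 2.03) were the higher ones.

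Proteases and their inhibitors had 8 of 29 lower and 1 higher, with a median of −1.32. Mmp3, the matrix protease stromelysin, was at 0.731 CPM (7 reads) against 183 CPM (−4.17). Mmp2 and Timp2 were at 431 CPM against 1474 CPM (−1.75) and at 366 CPM against 1219 CPM (−1.71). Adamts10, a metalloprotease of the microfibril, was the higher gene, at 538 CPM against 108 CPM (2.21). Integrins and laminins had 2 of 32 higher and 10 lower, with Itgb2, the integrin of leukocytes, at 3.76 CPM against 198 CPM (−3.92), and Lama3, besides Itga7, higher at 159 CPM against 14.1 CPM (2.81).

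Leukocyte lists had medians of 0.510% to 3.03% of their unlabelled level. Ptprc, the pan-leukocyte phosphatase CD45, was at 5.85 CPM (56 reads) against 603 CPM (−5.27). Of 22 macrophage and monocyte genes 21 were lower, with a median of 3.03% of the Pax7neg level, and Cd68, a lysosomal protein, kept 22.2%. Lyz2, the lysozyme of myeloid cells, was at 37.1 CPM against 1422 CPM (−4.93), and Laptm5 at 11.8 CPM against 642 CPM (−4.90). Of 18 neutrophil genes 14 were lower, with a median of 1.02% of the Pax7neg level. S100a9 and S100a8, the calprotectin subunits, were at 5.12 CPM against 799 CPM (−5.74) and at 3.34 CPM against 562 CPM (−5.42). Of 19 lymphocyte genes 18 were lower, with a median of 0.510%, while Blnk, an adaptor of B cell signalling, was at 50.1 CPM against 72.8 CPM (−0.46). Cd79a, part of the B cell receptor complex, was at 1.78 CPM against 188 CPM (−4.07). Cd3e, of the T cell receptor complex, was at 0.418 CPM (4 reads) against 45.1 CPM (−2.40). Cd8a had 0 reads in Pax7pos against 59.2 CPM in Pax7neg, at least 189-fold lower against the floor of 3 reads in that library, and it was among 25 genes of the table with 0 reads there.

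Many antigen presentation, complement and cytokine genes lay on the unlabelled side, and which cells they came from was not tested. All 10 MHC class II genes were lower, with a median of −3.81. Cd74, the invariant chain, was at 61.2 CPM against 4016 CPM (−5.82), and H2-Aa, H2-Ab1 and H2-Eb1 had between 22.5 and 26.0 CPM in Pax7pos against 1303 to 1747 CPM. Class I genes, which most cells express, had 3 of 13 lower and a median of −1.81. B2m, the light chain of class I, was at 472 CPM against 1984 CPM (−2.05), and H2-K1 at 878 CPM against 1973 CPM (−1.16). Complement had 15 of 20 lower and 0 higher, with a median of −3.09. C3, the central component, was at 21.0 CPM against 2158 CPM (−6.13), and C1s1 at 20.8 CPM against 594 CPM (−4.29). Interferon-induced genes had 13 of 26 lower, with Ifi205 at 1.98 CPM against 378 CPM (−5.02) and Irf1 at 233 CPM against 589 CPM (−1.30). Chemokines, cytokines and their receptors had 19 of 37 lower and 2 higher, with a median of −2.03. Among the higher genes of that list is Clcf1, a cytokine of the ciliary neurotrophic factor family (717 CPM against 35.1 CPM, 4.01). Il6st, the receptor chain shared by cytokines of this family, and Osmr, a receptor for oncostatin M, stood at 1.33 and 1.36, and Ccr7, a homing receptor of lymphocytes and dendritic cells, was at 1.46 CPM against 291 CPM (−4.71).

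Vessel genes were lower, with 20 of 28 endothelial markers past the size, 0 higher and all 28 below 0 (median −2.38). Pecam1, the junction protein CD31, was at 26.1 CPM against 266 CPM (−2.93), and Cdh5, the cadherin of endothelium, at 20.8 CPM against 214 CPM (−2.86). Ly6c1, Cd36 and Fabp4 were at −4.14, −3.62 and −3.43. The endothelial markers kept a median of 8.54% of their Pax7neg level, more than the leukocyte lists did. In Schwann cell markers Cnp was lower (5.22 CPM against 61.7 CPM, −2.24), and the higher gene of that list is Ncam1.

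**Figure D4:**
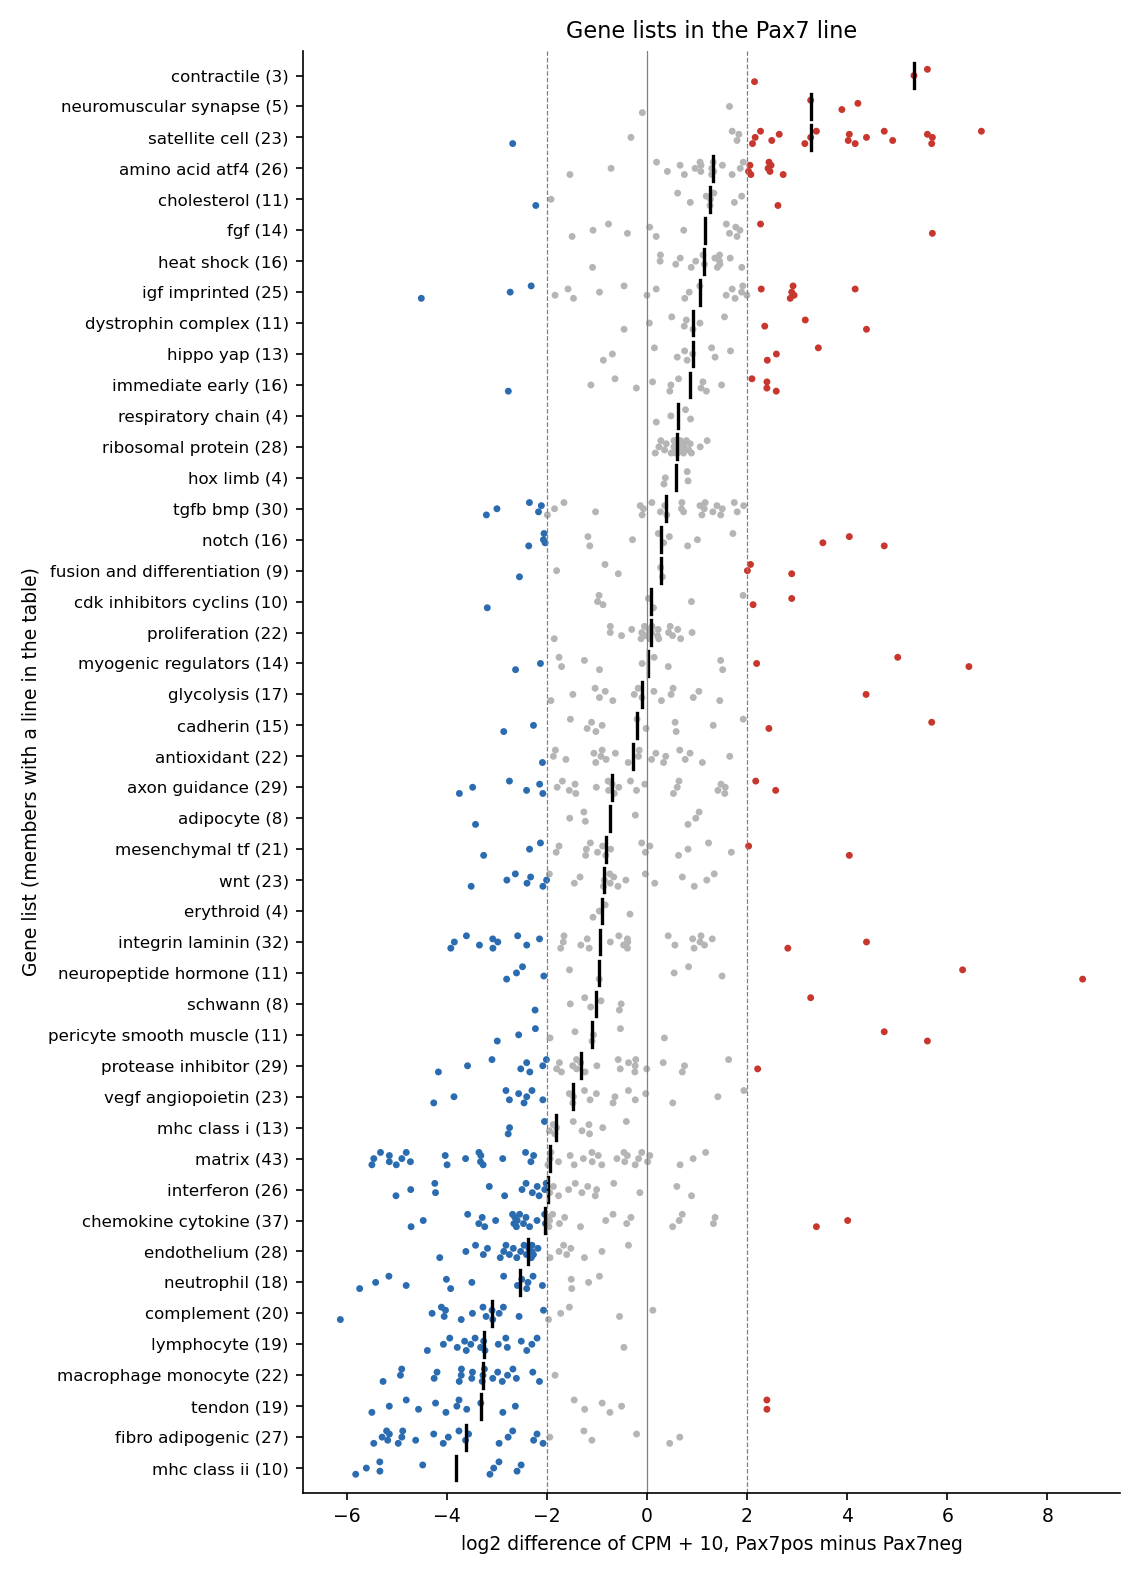
Difference of every measured member of each gene list (points, log2 of CPM + 10, Pax7pos over Pax7neg, red or blue past the size of 2) with the list's median (black bar), the lists ordered by median and their measured members in brackets. The contractile, satellite cell and neuromuscular lists have medians of 3.27 or more, and MHC class II, fibro-adipogenic and tendon lists lie at −3.81, −3.62 and −3.32. In the contractile, satellite cell and neuromuscular lists 0 of 3, 12 of 23 and 2 of 5 genes met the authors' rule by the Twist2 libraries alone.

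Summed over each list, markers of other cell types were above 0 in Pax7pos. In Pax7pos and Pax7neg respectively, the neutrophil list summed to 29.4 and 3122 CPM, the macrophage list to 182 and 5723 CPM, and the lymphocyte list to 66.0 and 1937 CPM. The endothelial list summed to 402 and 3840 CPM, and the fibro-adipogenic list to 11942 and 86650 CPM. That last sum in Pax7pos includes Col3a1 (3225 CPM), Vim (2473 CPM), Gsn (1817 CPM) and Gpx3 (1596 CPM), and which cells they came from was not tested. The satellite cell list ran the other way, at 14508 CPM for the labelled and 2233 CPM for the unlabelled library. Of the defining markers with a line, 0 were at 0 reads in Pax7pos, and Cd3e had the fewest. The part of the other cells in the differences was not tested.

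**Figure D5:**
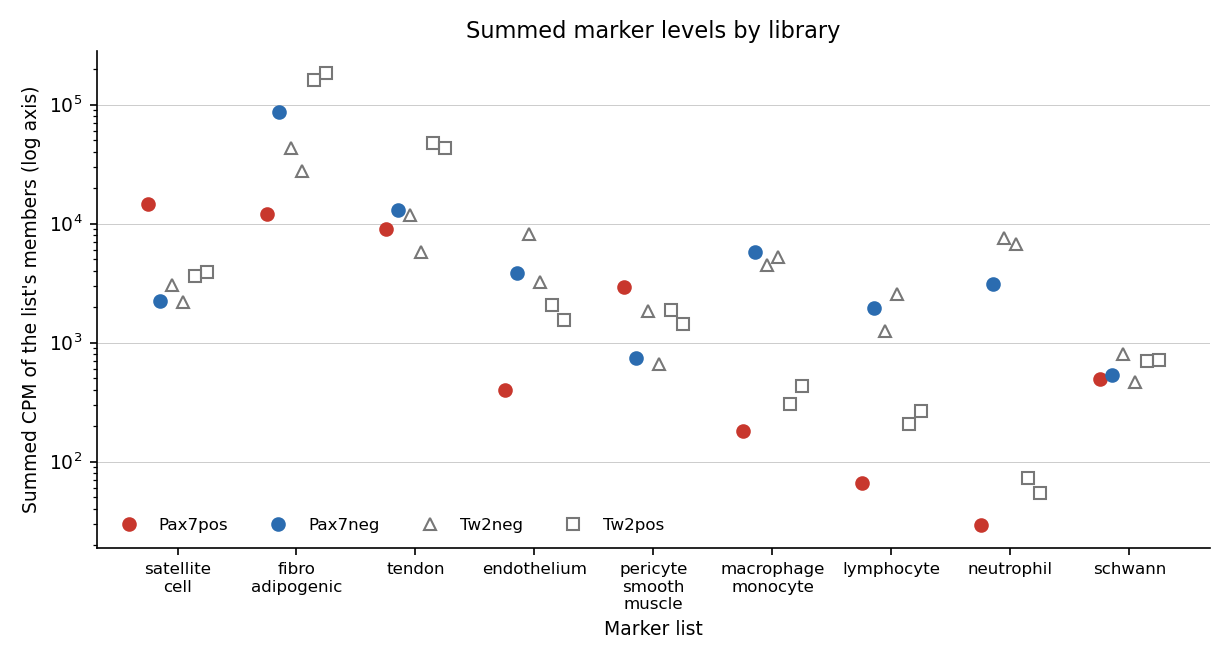
Summed CPM of the measured members of each marker list (y axis, log scale) in Pax7pos (red), Pax7neg (blue) and the Twist2 libraries (open grey symbols), 1 point per library. Pax7pos has the highest satellite cell sum, 14508 CPM, and the lowest endothelial, macrophage, lymphocyte and neutrophil sums of the 6 libraries.

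Of 22 measured cell cycle genes 0 passed the size in either direction, and the median was 0.07. Mki67, a protein of cycling cells, was at 55.1 CPM against 56.2 CPM (−0.02), and Top2a at 47.6 CPM against 43.7 CPM (0.10). The list ran from Cenpa, a centromere histone, at 7.10 CPM against 51.8 CPM (−1.85), to Prc1, a protein of the dividing spindle, at 27.9 CPM against 10.3 CPM (0.90). The unlabelled library includes leukocyte RNA, so these values set labelled cells against a mixture. Among cyclins and inhibitors Cdkn1a, the inhibitor p21, was at 1130 CPM against 606 CPM (0.89), Gadd45a at 487 CPM against 104 CPM (2.12) and Ccnd2 at 6.89 CPM against 144 CPM (−3.19). The median of those 10 genes was 0.08 and −0.04 after quantile normalization.

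Immediate-early genes respond within minutes to hours of a stimulus and to tissue dissociation. Of 29 listed, 16 had a line, 4 of them higher and 1 lower, with a median of 0.86. Fos, Fosb, Jun, Junb and Atf3 are among the 13 without a line. By the Twist2 libraries alone, 5 of the 16 measured genes met the authors' rule. Fosl1, a Fos-family factor, was at 696 CPM against 108 CPM (2.58), and Maff at 1210 CPM against 275 CPM (2.10), beside Egr1 and Egr2. Zfp36 and Ier5, in contrast, were at 2911 CPM against 2695 CPM (0.11) and 1238 CPM against 886 CPM (0.48). Klf2, a factor of endothelium and lymphocytes, was the lower gene, at 33.7 CPM against 289 CPM (−2.77). Of 26 listed heat shock and chaperone genes 16 had a line, with 0 past the size, a median of 1.13 and 15 above 0. Just 3 of these 16 met the authors' rule by the Twist2 libraries alone. Hspa5, the chaperone BiP of the endoplasmic reticulum, was at 11181 CPM against 2999 CPM (1.89), and Hsph1 at 2482 CPM against 777 CPM (1.66). All 28 measured ribosomal protein genes, of 49 listed, lay above 0 and inside the size, with a median of 0.60. That is near the median of 0.51 over the 2156 genes whose mean level reached 50 CPM. Only 1 of the 28 met the authors' rule by the Twist2 libraries alone. Rn45s, the precursor of ribosomal RNA, was the most abundant line of Pax7pos at 27078 CPM against 4797 CPM (2.49), and whether it reflects the RNA preparation was not tested.

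Amino acid supply genes, many of them targets of the stress factor ATF4, had 8 of 26 higher and 0 lower, with a median of 1.33. These 26 are the measured genes of 37 listed, and 9 of them met the authors' rule by the Twist2 libraries alone. Slc7a5, a transporter of large neutral amino acids, was at 611 CPM against 84.2 CPM (2.72). Aars and Nars, which load tRNA with alanine and asparagine, were at 711 CPM against 119 CPM (2.48) and at 838 CPM against 191 CPM (2.08). Sesn2, a sensor of leucine, was at 331 CPM against 52.1 CPM (2.46), and Atf4 itself at 1633 CPM against 834 CPM (0.96). In glycolysis and fuel choice 1 of 17 genes was higher, with a median of −0.10 that is positive under each of the 3 other scalings. That gene is Pdk4, a kinase that limits the entry of pyruvate into the citric acid cycle, at 348 CPM against 7.23 CPM (4.38). Sterol synthesis genes had a median of 1.26 over 11 genes. Of these, 1 was higher and 1 lower, the latter being Abcg1, an exporter of cholesterol, at 1.57 CPM against 44.0 CPM (−2.22). The antioxidant list had 0 of 22 higher and 1 lower, with a median of −0.27 that turns positive with TMM (0.12) and median-of-ratios factors (0.18). Hmox1, which breaks down haem, was level at 3589 CPM against 3367 CPM (0.09).

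Targets and cofactors of the YAP pathway had 3 of 13 higher, 0 lower and a median of 0.92. Ankrd1, a YAP target that is also a stress gene of muscle, was at 127 CPM against 2.73 CPM (3.42). Tead1 and Tead3, the DNA-binding partners of YAP, were at 317 CPM against 51.7 CPM (2.40) and at 227 CPM against 29.5 CPM (2.59). The targets Ctgf and Cyr61 stayed inside the size, at −0.69 and 0.60. Guidance genes had 2 of 29 higher and 6 lower, beside 3.83% and 14.6% of all genes. These guidance genes include Ntn4 (148 CPM against 16.6 CPM, 2.57) and Slit3 (2.92 CPM against 164 CPM, −3.75). In cadherins 2 of 15 were higher, Cdh15 and Pcdh18 (118 CPM against 13.6 CPM, 2.44), and 2 lower, with a median of −0.20 that is positive under each of the 3 other scalings.

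The labelled and unlabelled cells of the Twist2 line share no library with the Pax7 comparison, so the values can be set side by side. In 235 genes Pax7pos was lower than Pax7neg and each Tw2pos library was lower than each Tw2neg library, all by the size of 2. In 31 genes Pax7pos was lower while each Tw2pos library was higher than each Tw2neg library by that size. The number of genes higher on both labels was 0, and 0 genes were higher in Pax7pos and lower in Tw2pos. In all, 274 genes (5.55%) were lower and 50 (1.01%) higher in every Twist2 pair by that size. The 235 genes are 32.7% of those lower in Pax7pos and 85.8% of those lower in Tw2pos, and the 31 genes are 4.31% of the former and 62.0% of those higher in Tw2pos. The table was selected by differences from Tw2neg, so these shares hold for its genes only. Thbs4 shows the opposed pattern, with differences of 2.43 to 3.73 over the 4 Twist2 pairs against −5.50 in the Pax7 line. Dcn, with 2.05 to 2.74 in the Twist2 pairs, was at 14124 and 16580 CPM in Tw2pos and at 3403 and 2465 CPM in Tw2neg. Cd74 shows the shared pattern, with −6.22 to −4.94 in the Twist2 pairs. Pax7 and Cdh15 stood at −1.69 to −0.16 and −1.45 to −0.36 in those pairs. Over the Twist2 pairs the list medians were −2.74 to −2.37 for macrophages, −3.91 to −3.71 for neutrophils, 1.75 to 2.63 for matrix and 1.89 to 3.06 for tendon. The difference between the lines was not tested.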

How the data were processed

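RNA sequencing of sorted cells from adult mouse hind limb muscle was deposited as processed tables. The authors deposited CPM of 4939 genes for Pax7pos and Pax7neg (1 library each), with group means for the Twist2 groups, and in a separate table a normalised count signal for each of the 4 Twist2 libraries. Log2 fold changes that the authors deposited beside the CPM were not used. The submitters' processing notes name TopHat2 2.0.0, DESeq2 1.6.3 and the build GRCm38/mm10. The read counter, its annotation and the strand of the libraries: not given in the sources used here.

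Dividing the CPM and the signal by the value of 1 read gave whole reads for 100% of values within a tolerance of 0.01. In Pax7neg, where the smallest value is 5 reads, 1 read was worked out from the steps between values. The library sizes implied are 9572963 for Pax7pos and 12445892 for Pax7neg. For each Twist2 library CPM were computed from its reads so as to fit the authors' group means. No count test was run, since each Pax7 group holds 1 library. Differences are log2 of CPM + 10 and are called at 2. Intervals of 95% are exact Poisson for levels and exact Clopper-Pearson for ratios, with a floor of 3 reads, and cover counting error only.

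The members, the 46 gene lists, the size and the naming rule were chosen with earlier results of these data known. The rule names Pax7, Myod1, Myf5 and Twist1, the 15 largest differences in each direction with a mean of at least 50 CPM (predicted genes left out), the 4 highest members and the largest called difference in each direction of each list, and every satellite cell and myogenic regulator gene. Some genes that the rule names are not reported here. Other genes that are named were chosen after their values were seen, as were the Des and Acta1 promoters. Positions, older symbols (227 of 4925 matched genes) and promoters are from RefSeq GRCm38.p6, and exon lengths and strand from GENCODE M21. Paralogues and overlapping antisense genes may share reads. Alternatives were 2 other pseudocounts, a filter on level, 3 scalings, 2 other sizes and the genes chosen by the Twist2 libraries alone. The scripts were tested on simulated data and ran in Python 3.11.15 with scipy 1.17.1, pandas 2.3.3, numpy 2.4.6 and matplotlib 3.10.9.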

Additional observations from a re-analysis of the deposited data

Results flagged for a closer look

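Some differences between labelled and unlabelled cells were at least 1 in size in one direction in the Pax7 line and at least 1 in the other direction in all 4 pairs of Twist2 libraries. Gene lists were searched by their medians, and genes among the 30 with the largest differences. The difference between the lines was not tested. Among gene lists, the medians in the Pax7 line were −3.62 for fibro-adipogenic markers (1.40 to 2.15 over the Twist2 pairs), −1.94 for matrix genes (1.75 to 2.63), −3.32 for tendon genes (1.89 to 3.06) and −1.32 for proteases and their inhibitors (1.23 to 1.85). Among the 30 genes, Thbs4 was at −5.50, Dcn at −5.46, Postn at −5.33, Clec3b at −5.29, Prg4 at −5.21 and Apod at −5.20, with each Twist2 pair above 1. Fam132b ran the other way, at 8.71 in the Pax7 line and between −2.15 and −1.04 in the Twist2 pairs. By sign alone, with no minimum size, 15 of the 46 list medians and 17 of the 30 genes were opposed in every Twist2 pair, 10 of them higher in Pax7pos and 7 lower.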

How the results depend on the processing

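The counts of genes moved with each choice, and a size of 2 has no replicate behind it in the Pax7 line. The 189 higher and 719 lower genes became 313 and 1327 with 1 CPM added in place of 10 and 76 and 162 with 50 CPM added. They became 905 and 1631 at a size of 1 and 48 and 268 at a size of 3. TMM factors gave 415 higher genes and median-of-ratios factors 452. Of the 2156 genes whose mean level reached 50 CPM 173 were higher and 383 lower. Among genes chosen by the Twist2 libraries alone 52 were higher and 363 lower. Of 110 called genes that the rule names, 32 fell under the size with 50 CPM added, 11 after quantile normalization and 6 with either set of factors, and 0 changed sign. The medians of the antioxidant, cadherin, cyclin, glycolysis and Wnt lists changed sign with at least 1 scaling. Depth limits genes near the floor of 0.313 CPM in Pax7pos and 0.241 CPM in Pax7neg. No paired analysis was possible because the groups compared hold 1 library each, and only the Twist2 groups share replicate numbers.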

Other observations

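Genes outside the lists also separated the labelled cells, and those named here were chosen after their values were seen. Among transcription factors Runx1, which acts in blood and in muscle progenitors, was at 1309 CPM against 99.4 CPM (3.59), and Prox1, a factor of lymphatic endothelium and slow fibres, at 112 CPM against 1.69 CPM (3.39). Esr1, the oestrogen receptor alpha, was at 106 CPM against 9.40 CPM (2.58). Slc39a14, a zinc and iron importer, was at 3156 CPM against 147 CPM (4.33). Tenm4, a teneurin, was at 205 CPM against 1.69 CPM, and Tln2, a talin of muscle attachments, at 623 CPM against 31.2 CPM (3.94). Ank3, which anchors channels to the membrane skeleton, was at 250 CPM against 7.31 CPM (3.91). Ret and Bdkrb1, receptors for glial-derived growth factors and for kinins, were at 111 CPM against 12.5 CPM (2.43) and at 115 CPM against 10.7 CPM (2.60).

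Of 20 cytosolic aminoacyl-tRNA synthetases 12 had a line, 6 of them higher, 0 lower and 11 above 0, with a median of 1.97 against −0.43 for all genes. They ran from Vars at −0.47 to Aars at 2.48, with Cars at 339 CPM against 55.9 CPM and Gars at 343 CPM against 86.9 CPM. Of 18 cyclic nucleotide phosphodiesterases 12 had a line, 4 of them higher and 0 lower, and the median was −0.30. The higher ones are Pde10a (134 CPM against 11.8 CPM, 2.72), Pde4d (218 CPM against 38.0 CPM, 2.25), Pde7b (100.5 CPM against 14.4 CPM, 2.18) and Pde3a (59.9 CPM against 6.51 CPM, 2.08).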
